A study of Ovis aries with 9 samples.

Results

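The genes described here encode the folding machinery of the endoplasmic reticulum (ER) and the unfolded protein response, and they were followed in cultured sheep granulosa cells given no glucose, 8.4 mM glucose or 33.6 mM glucose. A set of 36 gene symbols was fixed by name, and 33 of them were in the gene table of 39157 genes, of which 14153 carried a symbol. DNAJB11, XBP1 and SEC61B were not analysed here. All 33 genes passed the filter on low values, so none was left out of a test. Where a symbol had several rows, the rule took the one with the highest mean FPKM. Each of the 33 had 1 row, so no measured value decided a choice of row.

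The cells came from follicles of 3 to 5 mm in thin-tailed Han ewes (1 year old by the submitters' design text, 1 to 1.5 years by the study's methods), were collected into a common pool from many ovaries and were precultured for 48 h in medium with 10% fetal bovine serum. All cultures then spent 8 h without glucose or serum, and were then held for a further 24 h. The CON group had no glucose (0 mM), the LOW group 8.4 mM and the HIGH group 33.6 mM. Each group had 3 RNA-seq libraries of total RNA. Because the libraries shared a pooled cell source, the p-values below measure the spread between these samples only, which may be technical.

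Proteins that enter the secretory pathway are threaded into the ER through the Sec61 channel and fold there with the help of chaperones, disulfide isomerases and the calnexin cycle, which reads the sugar chains on the new protein. Proteins that do not fold are moved back to the cytosol and degraded (ER-associated degradation). The sensors ERN1 (IRE1), ATF6 and EIF2AK3 (PERK) respond when unfolded protein accumulates and raise the transcription of the chaperones, a program known as the unfolded protein response. HSPA5 and HSP90B1 were first described as glucose-regulated proteins, since cells deprived of glucose make more of them. In the ovary, granulosa cells surround the oocyte and secrete hormones and matrix proteins.

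The 33 genes were expressed in every library, and together they took between 1.06% and 1.10% of the FPKM of all genes with a symbol in each of the 9 libraries. FPKM counts fragments relative to transcript length and to the size of the library, so levels of different genes can be compared. The protein disulfide isomerases P4HB and PDIA3 stood highest, with means over all libraries of 405 and 336 FPKM. The calcium-binding lectin chaperone CALR followed at 242 FPKM and HSPA5, the HSP70 chaperone of the ER lumen, at 219.9 FPKM. The ranges of neighbours in this order overlapped: P4HB ran from 342 to 484 FPKM over the 9 libraries and PDIA3 from 292 to 410.5 FPKM. At the low end were the ubiquitin ligase SYVN1 (4.14 FPKM), the sensor ERN1 (2.39 FPKM) and the co-chaperone component SDF2L1 (2.05 FPKM). In all, 8 genes had a mean of 100 FPKM or more and 7 a mean under 10 FPKM, and 17 were in the highest 10% of genes with a symbol. The library with the highest value was less than 2 times the lowest for 21 genes, and 3 times the lowest or more for 6.

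A pair of genes known to rise with glucose served as a check of the treatment. TXNIP, a thioredoxin-binding protein, was at 76.2, 90.4 and 103 FPKM in CON, at 211, 216 and 218 FPKM in LOW and at 180.4, 215 and 207 FPKM in HIGH. Its log2 fold change with glucose (LOW and HIGH together against CON) was 1.28 (SE 0.15, adjusted p = 0.0439, limma). ARRDC4, an arrestin-domain protein, was at 12.1 to 17.6 FPKM in CON and at 27.6 to 45.7 FPKM with glucose, a log2 fold change of 1.26 (SE 0.14, adjusted p = 0.0391, limma). Both genes were higher in 6 of 6 libraries with glucose than in any without. In the comparisons of a single glucose group with CON, neither passed the threshold (adjusted p = 0.162 and 0.239 in LOW, 0.228 and 0.0911 in HIGH, limma).

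None of the 33 ER genes rose or fell with glucose by the same test in any of the 4 comparisons, which share libraries with each other. The test was limma on log2(FPKM + 0.1), with the libraries first brought to equal medians, and a gene was called at a Benjamini-Hochberg adjusted p under 0.05 over 24365 genes. In LOW against CON, 0 of 33 were called against 0.00821% of all genes tested, in HIGH against CON 0 against 0.00821%, in HIGH against LOW 0 against 0.00821%, and with both glucose groups pooled 0 against 0.0246%. The lowest adjusted p among the 33 was 1, 0.596, 0.593 and 0.939 in the same order. At an unadjusted p under 0.05 the counts were 0, 3, 3 and 1 of 33, where 1.83%, 6.67%, 7.65% and 2.64% of all genes passed. After scaling, these ER genes had the higher level in the group with more glucose, as did 4.01% of all genes in HIGH against CON, 5.13% in HIGH against LOW and 1.4% with glucose pooled. As deposited, 5 passed in HIGH against CON, of which SEC61A1 and ERN1 were higher and CRELD2, PDIA4 and MANF lower. With glucose pooled 3 passed, of which SEC61A1 was higher and CALR and PDIA3 lower. The share of all genes passing this p as deposited was not computed, so these 2 counts have no background. The median log2 fold change of the ER genes was -0.003 in LOW against CON, -0.06 in HIGH against CON, -0.10 in HIGH against LOW and -0.06 with glucose pooled, beside 0.009, 0.06, 0.05 and 0.03 over all genes tested. Over the 10995 tested genes that carried a symbol, as all ER genes did, it was -0.004, -0.04, -0.05 and -0.02, below 0 as for the ER genes.

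How far a change was bounded differed between genes. With glucose pooled, the 95% confidence interval lay within a 2-fold change in both directions for 29 of the 33 genes and within a 1.5-fold change for 22. In LOW against CON it lay within 2-fold for 32 genes, in HIGH against CON for 26 and in HIGH against LOW for 25. The plot of fold changes shows these intervals beside those of TXNIP.

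**Figure D1:**
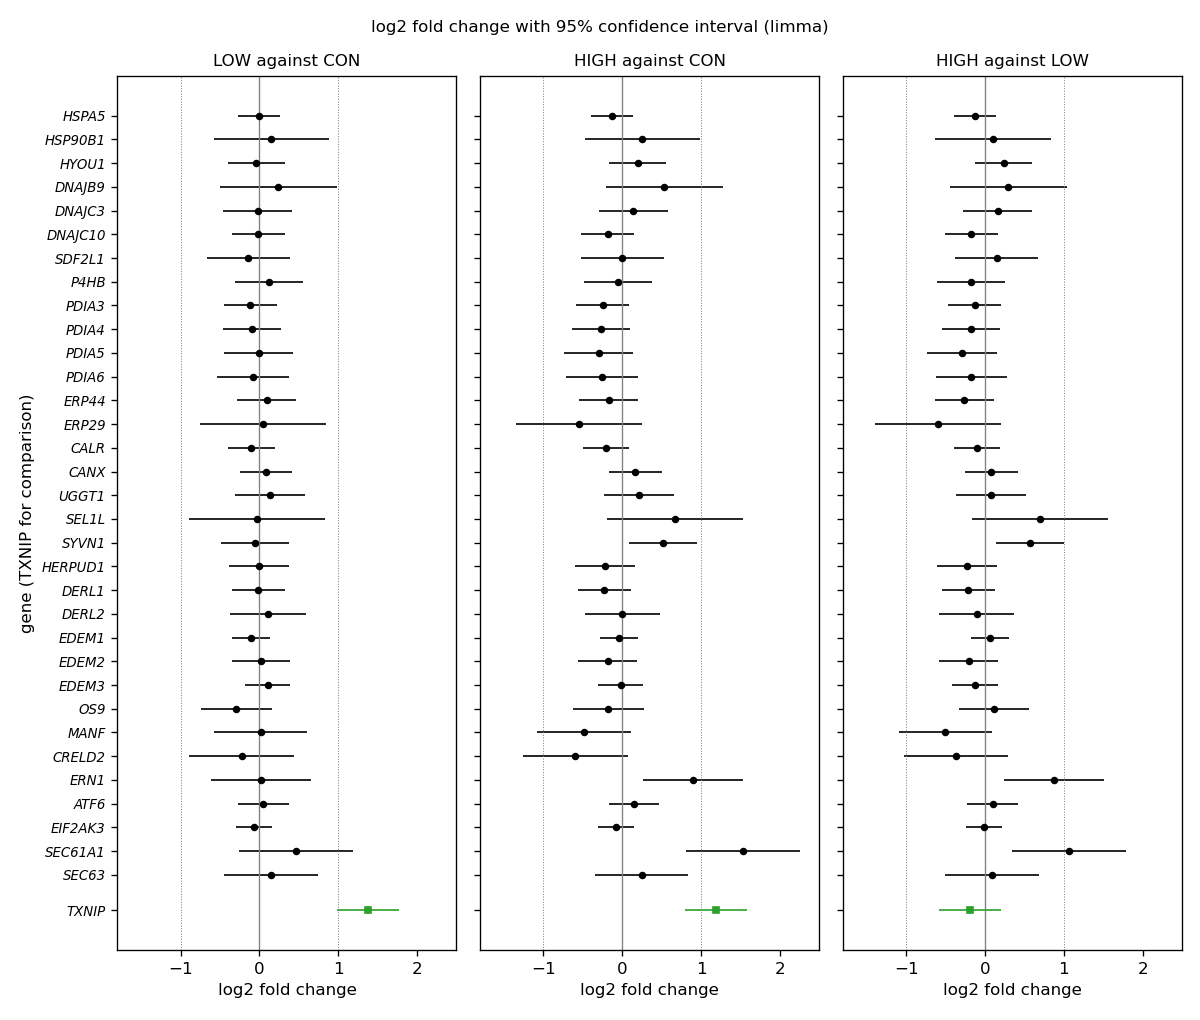
Log2 fold changes (horizontal axis) of the 33 ER genes, ordered by role, in 3 comparisons, with 95% confidence intervals from limma; dotted lines mark a 2-fold change and the green square is TXNIP. Intervals of the other ER genes cross 0, while those of SEC61A1, ERN1 and SYVN1 lie above 0 in both comparisons with HIGH.

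Among the HSP70 and HSP90 chaperones, HSPA5 varied least between libraries. It was at 252, 212 and 236 FPKM in CON, at 222, 212 and 213 FPKM in LOW and at 216, 223 and 192 FPKM in HIGH. All 3 groups overlapped in these deposited values, and the lowest library was a HIGH library. The cells without glucose had a mean HSPA5 level of 233 ± 20.1 FPKM (SD, n = 3), the LOW cells at 216 ± 5.53 and the HIGH cells at 211 ± 16.2. With glucose pooled the fold was 0.957, with a 95% confidence interval from 0.816 to 1.12. The gene lies on chromosome 3 (10721674 to 10725535, in the coordinates of the files, whose build is not given in the sources used here).

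HSP90B1, the HSP90 chaperone of the ER, was far less even. It was at 157, 102 and 46.6 FPKM in CON, at 108, 86.0 and 88.9 FPKM in LOW and at 130.0, 110.1 and 85.0 FPKM in HIGH. The 3 CON libraries alone spanned the values of all others. Its fold with glucose pooled was 1.15, with an interval from 0.742 to 1.79. HYOU1, a large HSP70-like chaperone that exchanges nucleotide on HSPA5, was at 8.56, 9.04 and 9.30 FPKM in CON, at 7.97, 8.95 and 7.40 FPKM in LOW and at 11.7, 11.2 and 7.85 FPKM in HIGH. HIGH replicates 1 and 2 stood above the rest, and HIGH replicate 3 did not.

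The co-chaperones bring clients to HSPA5 and start its ATP cycle. DNAJB9, which binds HSPA5 and also restrains ERN1, was at 31.7, 21.8 and 10.3 FPKM in CON, at 25.5, 18.5 and 19.9 FPKM in LOW and at 37.8, 27.5 and 20.0 FPKM in HIGH. Its log2 fold change in HIGH against CON was 0.54 (SE 0.33, adjusted p = 0.655, limma), and the groups overlapped. SDF2L1, a partner of ER co-chaperones, was at 2.21, 2.12 and 2.09 FPKM in CON, at 1.77, 2.05 and 1.58 FPKM in LOW and at 3.06, 2.07 and 1.48 FPKM in HIGH, so that the highest and the lowest library were both HIGH libraries. DNAJC3, a co-chaperone of HSPA5, ranged from 18.0 to 35.1 FPKM, and DNAJC10, a co-chaperone that also reduces disulfide bonds, from 25.7 to 36.3 FPKM.

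The 7 disulfide isomerases and related thioredoxin-fold proteins were the role group with the highest summed level, of 1032 to 1639 FPKM. In HIGH, all 7 had fitted log2 fold changes below 0 against CON (-0.55 to -0.06) and below 0 against LOW (-0.60 to -0.13), a sign they kept with the FPKM as deposited and with TMM scaling. After median scaling, 55.8% and 54.8% of all genes were above 0 in these comparisons. As deposited the shares were 52.7% and 61.3%, and with TMM scaling 59.1% and 57.4%. Genes with a symbol (10995 tested) had medians below 0, at -0.04 against CON and -0.05 against LOW. The medians of the 7 were -0.26 and -0.18, and whether the sign was particular to them was not tested. With median scaling 0 of 7 passed an unadjusted p under 0.05. As deposited 1 (PDIA4) did in HIGH against CON, where the share of all genes was not computed. PDIA4, an isomerase among the glucose-regulated proteins, was at 84.1, 90.9 and 109 FPKM in CON, at 78.7, 85.5 and 81.9 FPKM in LOW and at 70.5, 82.1 and 78.9 FPKM in HIGH. In these deposited values the HIGH libraries lay below every CON library, and after scaling the groups overlapped. ERP29, an ER protein without isomerase activity, had the lowest fitted value of the 7 in both HIGH comparisons and ranged from 87.1 to 201 FPKM within CON.

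In the calnexin cycle, CALR was at 262, 259 and 281 FPKM in CON, at 234, 239.7 and 220.0 FPKM in LOW and at 222, 237 and 225 FPKM in HIGH. Every CON library was above every glucose library in the deposited values. The order did not survive scaling, which divided CON replicate 1 by 1.13 and CON replicate 3 by 0.956, and the fold with glucose pooled was 0.9 with an interval from 0.754 to 1.07. PDIA3, the isomerase that works with calnexin and calreticulin, showed the same: it was at 345 to 410.5 FPKM in CON and at 292 to 326 FPKM with glucose as deposited, and overlapped after scaling. CANX, the membrane-bound lectin chaperone, ranged from 58.8 to 101 FPKM and UGGT1, the folding sensor that re-glucosylates unfolded glycoproteins, from 16.8 to 35.7 FPKM, and both were highest and lowest within CON.

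The scaling therefore mattered for the small differences from CON. Without it, the median log2 fold change of all genes in LOW against CON went from 0.009 to -0.09, and 34.3% of all genes had a value above 0 where 51.9% did after scaling. Among the ER genes, 7 of 33 lay above 0 without scaling and 15 of 33 with it. Groups that did not overlap were 0 of 33 after scaling (6.23% of all genes) and 6 of 33 as deposited (9.44% of all genes), all 6 lower in LOW, as were 7.99% of all genes. With glucose pooled the counts were 0 of 33 (1.48% of all genes) and 2 of 33 (3.04%), the latter being CALR and PDIA3, both lower with glucose (2.68% of all genes). No ER gene was called under either.

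**Figure D2:**
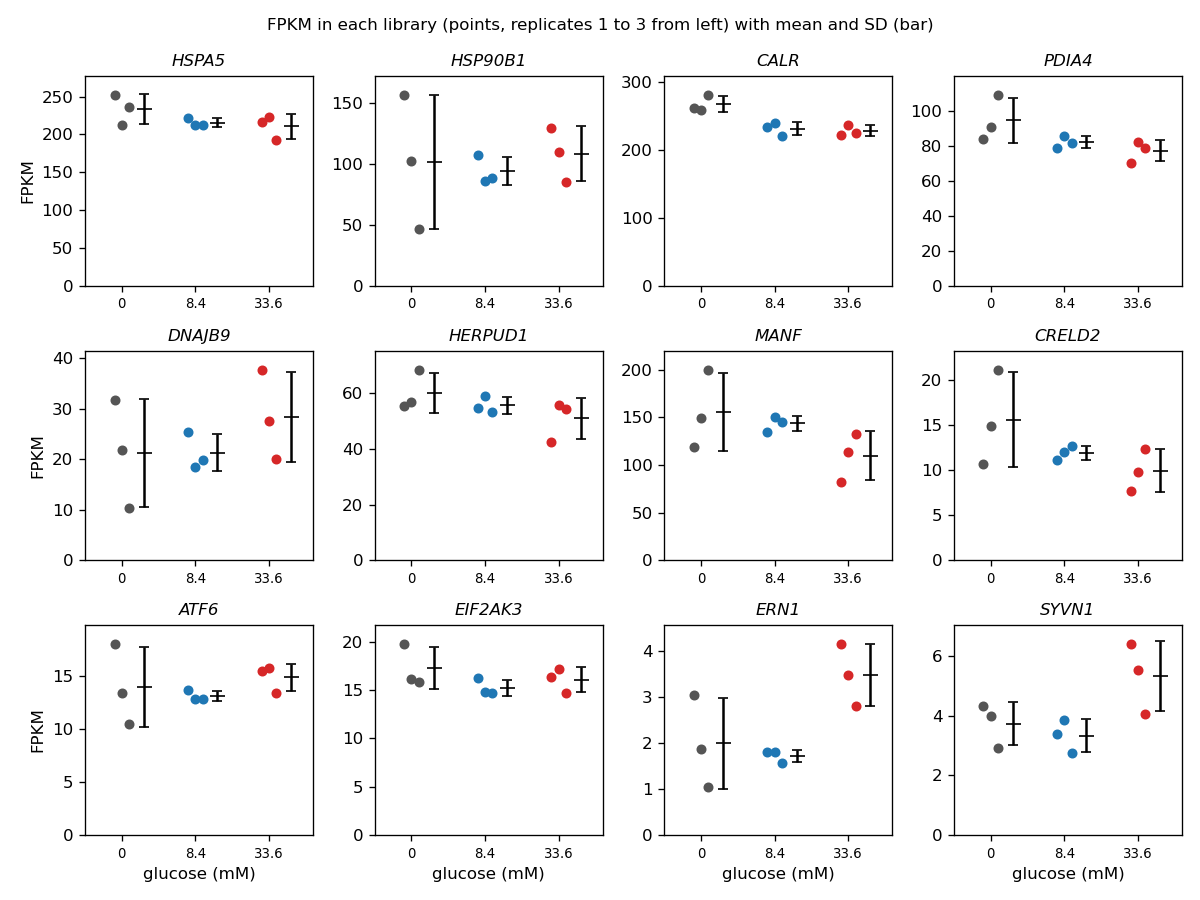
FPKM (vertical axis, from 0) of 12 ER genes against glucose (0, 8.4 and 33.6 mM); points are the libraries of CON (grey), LOW (blue) and HIGH (red) and the bar is the mean with its SD, n = 3. CON libraries of HSP90B1, DNAJB9, MANF and CRELD2 spread over most of the range of all 9, HSPA5 stays between 192 and 252 FPKM, and the HIGH libraries of ERN1 are all above the LOW libraries.

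Of the secreted stress factors, MANF, a neurotrophic protein kept in the ER by HSPA5, was at 119, 149 and 199.9 FPKM in CON, at 135, 150.2 and 145 FPKM in LOW and at 81.9, 114 and 133 FPKM in HIGH. CRELD2, a disulfide-linked ER stress protein, was at 10.7, 14.9 and 21.1 FPKM in CON, at 11.1, 12.0 and 12.6 FPKM in LOW and at 7.69, 9.77 and 12.4 FPKM in HIGH. HIGH replicate 1 was the lowest library and CON replicate 3 the highest for both genes. Their log2 fold changes in HIGH against CON were -0.48 (SE 0.26) and -0.59 (SE 0.29), with an adjusted p of 0.655 for each (limma).

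The ER-associated degradation genes gave 9 members with summed levels of 219 to 273 FPKM. HERPUD1, which organizes the degradation complex, was at 55.3, 56.9 and 68.5 FPKM in CON, at 54.8, 58.9 and 53.2 FPKM in LOW and at 42.5, 55.8 and 54.4 FPKM in HIGH. EDEM1, a lectin that marks glycoproteins for degradation, was at 27.7, 23.4 and 23.6 FPKM in CON, at 21.7, 22.4 and 20.3 FPKM in LOW and at 25.9, 25.1 and 20.5 FPKM in HIGH. For both, the groups overlapped once the libraries were scaled. OS9, another lectin of this route, was at 18.4, 21.2 and 29.7 FPKM in CON, at 17.5, 17.2 and 16.7 FPKM in LOW and at 20.7, 20.1 and 18.5 FPKM in HIGH, so that LOW lay below the other 2 groups as deposited, with a log2 fold change in LOW against CON of -0.29 (SE 0.20, adjusted p = 1, limma).

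SYVN1, the ubiquitin ligase at the centre of this route, was at 4.32, 3.98 and 2.92 FPKM in CON, at 3.39, 3.85 and 2.75 FPKM in LOW and at 6.41, 5.53 and 4.07 FPKM in HIGH. HIGH replicates 1 and 2 were above all 6 CON and LOW libraries, and HIGH replicate 3 was within the CON range as deposited. The fitted log2 fold change was 0.52 (SE 0.19, unadjusted p = 0.0234, adjusted p = 0.655) in HIGH against CON and 0.57 (unadjusted p = 0.0148, adjusted p = 0.593) in HIGH against LOW (limma). Against CON it was 0.39 without HIGH replicate 1 (unadjusted p = 0.0915) and 0.41 without CON replicate 3 (unadjusted p = 0.0649, limma). Against LOW it was 0.44 without HIGH replicate 1 (unadjusted p = 0.0618) and 0.46 without LOW replicate 3 (unadjusted p = 0.0629, limma). SEL1L, the partner of SYVN1, ranged from 2.99 to 13.5 FPKM and was highest in HIGH replicate 1 and lowest in CON replicate 3. Its log2 fold change in HIGH against CON was 0.67 (SE 0.38, adjusted p = 0.655, limma). The SEL1L level includes an assembled RNA, SEL1L-OT1, at 0.337 to 1.45 FPKM. The remaining members, DERL1, DERL2, EDEM2 and EDEM3, which move or trim the substrates of degradation, had fitted log2 fold changes between -0.23 and 0.11 in the 4 comparisons.

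Of the 3 sensors, ATF6 and EIF2AK3 had fitted log2 fold changes between -0.07 and 0.15 in the 4 comparisons. ATF6, a membrane-bound transcription factor, was at 18.0, 13.4 and 10.5 FPKM in CON, at 13.7, 12.8 and 12.9 FPKM in LOW and at 15.5, 15.8 and 13.4 FPKM in HIGH. EIF2AK3, the kinase that slows translation under stress, was at 19.7, 16.2 and 15.8 FPKM in CON, at 16.2, 14.8 and 14.7 FPKM in LOW and at 16.4, 17.2 and 14.7 FPKM in HIGH. The groups of EIF2AK3 overlapped, and its fold with glucose pooled was 0.953, with an interval from 0.831 to 1.09.

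ERN1, the kinase and endoribonuclease that splices XBP1 mRNA, had values of 3.03, 1.87 and 1.05 FPKM in CON, 1.79, 1.80 and 1.57 FPKM in LOW and 4.14, 3.48 and 2.80 FPKM in HIGH. All HIGH libraries were above all LOW libraries, and CON replicate 1 was above HIGH replicate 3 as deposited. The fitted log2 fold change was 0.90 (SE 0.28, unadjusted p = 0.011, adjusted p = 0.655) in HIGH against CON and 0.88 (unadjusted p = 0.0123, adjusted p = 0.593) in HIGH against LOW (limma). Leaving out CON replicate 3 gave 0.58 against CON, and leaving out CON replicate 1 gave 1.19. The gene's level is the sum over 4 transcripts, among them an antisense RNA (ERN1-AS1, at most 0.559 FPKM), and without stated strand information reads of overlapping antisense RNA cannot be told apart. That highest value was in HIGH replicate 3, while HIGH replicates 1 and 2 were listed at 0 and CON replicate 1 at 0.034 FPKM. After scaling, HIGH replicate 3 was above CON replicate 1 (2.93 and 2.69 FPKM), in gene values that include ERN1-AS1. The order without this RNA was not tested. The transcript ERN1-202 went from 0.422 to 2.08 FPKM within CON and from 0.712 to 3.23 FPKM within HIGH.

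In scaled values, groups of ER genes that did not overlap were 3 of 33 in HIGH against CON (SYVN1, ERN1 and SEC61A1, all higher in HIGH), where 9.32% of all genes did not overlap and 5.14% were higher without overlap. In HIGH against LOW they were 8 of 33, where 19% of all genes did not overlap. Of the 8, SYVN1, OS9, ERN1, ATF6 and SEC61A1 were higher in HIGH, and HSPA5, ERP29 and CALR were lower, beside 10.8% and 8.2% of all genes. As deposited the count was 4 in HIGH against CON (11.5% of all genes), where SEC61A1 was higher (3.33% of all genes) and PDIA3, PDIA4 and CALR were lower (8.12%). It was 5 in HIGH against LOW (17.9% of all genes), where SYVN1, OS9, ERN1 and SEC61A1 were higher (11.6%) and MANF was lower (6.28%).

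SEC61A1, the pore-forming subunit of the translocation channel, was the 1 ER gene of 33 whose values fell at 2 separate levels. It was at 19.4, 19.7 and 21.3 FPKM in CON, at 18.5, 19.6 and 47.5 FPKM in LOW and at 58.9, 60.3 and 53.1 FPKM in HIGH. No library lay between 21.3 and 47.5 FPKM, and LOW replicate 3 was at the upper level with the HIGH libraries. The log2 fold change was 1.53 in HIGH against CON (SE 0.32, a fold of 2.89, unadjusted p = 0.000905, adjusted p = 0.596) and 1.06 in HIGH against LOW (SE 0.32, unadjusted p = 0.00861, adjusted p = 0.593), both by limma. Without LOW replicate 3 the value in HIGH against CON was the same size, 1.53, with an adjusted p of 0.016, and in HIGH against LOW it was 1.52 with an adjusted p of 0.0612 (limma). SEC61A1 was thus the only one of the 33 ER genes called in any fit, and only in that one.

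**Figure D3:**
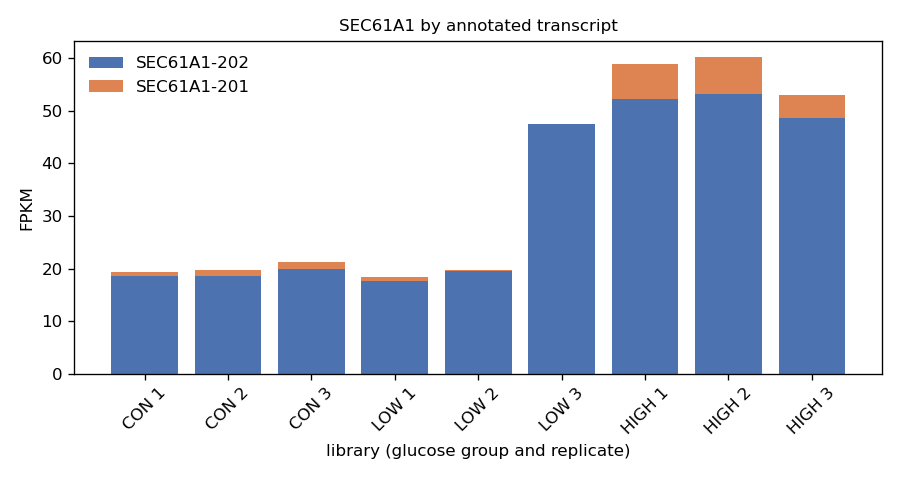
FPKM of the 2 annotated SEC61A1 transcripts, stacked, in each of the 9 libraries (horizontal axis). LOW replicate 3 and the 3 HIGH libraries reach 47.5 to 60.3 FPKM, the other 5 libraries 18.5 to 21.3 FPKM, and SEC61A1-201 exceeds 4 FPKM in HIGH libraries alone.

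Both annotated transcripts of SEC61A1 start at the same position on chromosome 19 (59331197 to 59343557 for SEC61A1-201, and to 59342948 for SEC61A1-202). SEC61A1-202 carried most of the level, at 17.7 to 19.8 FPKM in the 5 lower libraries and 47.5 to 53.3 FPKM in the 4 upper ones. SEC61A1-201 was at 0.795, 1.14 and 1.42 FPKM in CON and at 6.59, 6.95 and 4.40 FPKM in HIGH. In LOW it was at 0.779 and 0.00715 FPKM in replicates 1 and 2, and listed at 0 in replicate 3. LOW replicate 3 was thus just below the HIGH libraries for SEC61A1-202. For SEC61A1-201, all 3 LOW libraries were below the CON libraries. All 24365 genes tested were searched for this split, by a rule taken from the SEC61A1 values after they were seen. It asked for LOW replicate 3 and every HIGH library at 1 FPKM or more and at least 2 times every other library. SEC61A1 had to pass this rule, and no other gene did. SEC63, which works beside the channel and recruits HSPA5, did not share the split: it ranged from 4.42 to 11.3 FPKM, with both ends in CON.

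Libraries of the same glucose group differed, most of all in CON. There 21 of the 33 genes had a range between replicates of over 0.5 on the log2 scale, in HIGH 11 and in LOW 1, the last being SEC61A1. Of 8531 genes with a symbol and an FPKM of 1 or more in every library, 53.0% did in CON, 34.4% in HIGH and 6.97% in LOW. The median range of the 33 ER genes was 0.55 in CON, 0.16 in LOW and 0.45 in HIGH, beside 0.53, 0.21 and 0.37 over the 8531 genes. HSP90B1 was 2.84-fold higher in CON replicate 1 than in CON replicate 3 after scaling, SEL1L 2.86-fold, DNAJB9 2.59-fold and ERN1 2.33-fold. ERP29, CRELD2 and MANF went the other way, at 0.368, 0.432 and 0.505 times the level of CON replicate 3. HSPA5, EIF2AK3 and EDEM1 differed by less than 0.25 on the log2 scale within each group.

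**Figure D4:**
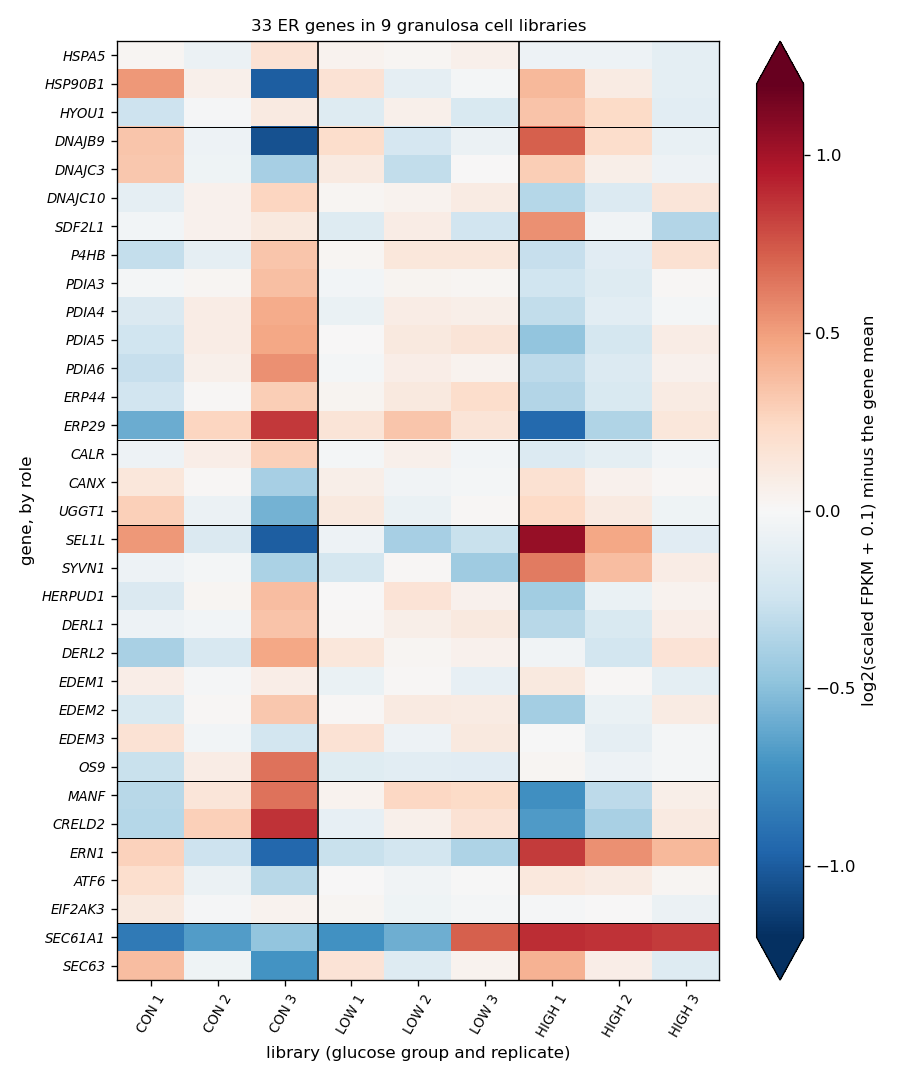
Scaled log2(FPKM + 0.1) of the 33 ER genes (rows, by role) in the 9 libraries (columns), minus the mean of each gene; red is above and blue below the mean. CON 3 and HIGH 1 carry the strongest colours and often opposite ones, LOW libraries are pale, and SEC61A1 is red in LOW 3 and all HIGH libraries.

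Most ER genes differed in the same direction between HIGH replicates 1 and 3 as between CON replicates 1 and 3. The signs matched for 27 of 33 ER genes (81.8%), and for 79.4% of the 8531 genes with a symbol and an FPKM of 1 or more in every library, so that the ER genes were near the background. The 12 ER genes that were higher in CON replicate 1 than in CON replicate 3 had a median genomic span of 60223 bases, and the 21 others one of 13492 bases. Over the 8531 genes the same split gave 51348 and 17023 bases. Exceptions ran both ways. Among them, DNAJB9 (1616 bases) and SYVN1 (4969 bases) were higher in CON replicate 1, and PDIA5 (92057 bases) and ERP44 (87891 bases) were lower. An index of long against short genes over all genes with a symbol was lowest in CON replicate 3, at -0.88, where CON replicates 1 and 2 gave 0.08 and -0.34. It was -0.17, -0.41 and -0.33 over the LOW libraries, while HIGH gave 0.11, -0.05 and -0.33. Small RNA genes took 30.3% of all FPKM in HIGH replicate 1 and 50.7% to 72.1% in the others, and unannotated assembled loci 42.4% in HIGH replicate 1 and 4.17% to 19.6% elsewhere. The part of these differences in the ER gene values was not tested beyond fits that carried them as covariates. With the index of long genes as a covariate, a choice made after seeing the data, the log2 fold change of ERN1 in HIGH against CON was 0.56 and that of SEC61A1 was 1.64, with an adjusted p of 0.393 and 0.354 (limma).

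**Figure D5:**
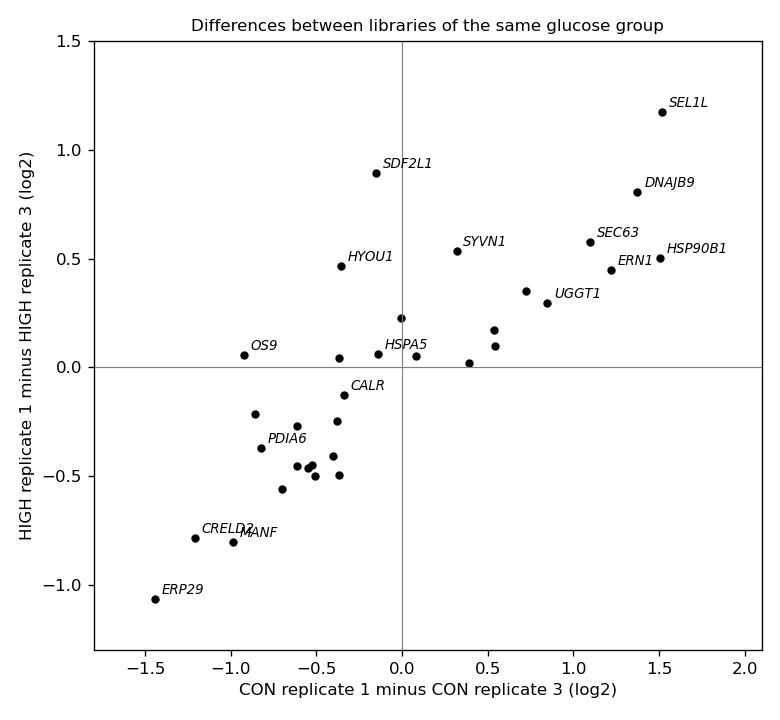
Each point is 1 ER gene: the log2 difference between CON replicates 1 and 3 (horizontal axis) against that between HIGH replicates 1 and 3 (vertical axis), after scaling. SEL1L, HSP90B1, DNAJB9, SEC63 and ERN1 lie at the upper right and ERP29, CRELD2 and MANF at the lower left, while 6 genes, SDF2L1, HYOU1 and OS9 among them, are above 0 on the vertical axis alone.

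A wider list of 104 further genes of the ER and of the stress response was checked by the same test, and 93 of them were in the table. None was called in any comparison with all libraries and no covariate. At an unadjusted p under 0.05 the counts were 1, 3, 4 and 1 of 93 in LOW against CON, HIGH against CON, HIGH against LOW and glucose pooled, beside 1.83%, 6.67%, 7.65% and 2.64% of all genes. ATF4, the transcription factor raised by EIF2AK3 signalling, was at 98.3, 76.1 and 60.2 FPKM in CON, at 67.6, 77.2 and 63.3 FPKM in LOW and at 93.9, 97.2 and 71.6 FPKM in HIGH. DDIT3 (CHOP), a stress-induced factor linked to cell death, was at 1.41 to 2.84 FPKM in CON, 1.21 to 2.67 FPKM in LOW and 2.22 to 2.94 FPKM in HIGH. Both overlapped in all groups, with log2 fold changes for glucose pooled of 0.08 (SE 0.13) and -0.03 (SE 0.29).

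GANAB, the catalytic subunit of glucosidase II, which trims glucose from new glycoproteins for the calnexin cycle, was lowest in LOW. It was at 54.4, 44.0 and 43.6 FPKM in CON, at 28.0, 25.3 and 28.2 FPKM in LOW and at 55.3, 53.8 and 44.4 FPKM in HIGH. The LOW libraries lay below all others, with a log2 fold change of -0.69 against CON (SE 0.11, unadjusted p = 0.000133, adjusted p = 0.54, limma). In HIGH against LOW it was 0.82 (unadjusted p = 3.2e-05, adjusted p = 0.135, limma). With the index of long genes as a covariate, it was 0.79 in HIGH against LOW, which passed the threshold (adjusted p = 0.0316, limma), and -0.70 in LOW against CON (adjusted p = 0.056, limma). CREB3L1, an ER-bound transcription factor known for collagen production, was at 24.1, 17.8 and 8.52 FPKM in CON, at 16.3, 14.4 and 13.0 FPKM in LOW and at 61.5, 40.5 and 22.5 FPKM in HIGH. Its log2 fold change in HIGH against CON was 1.33 (SE 0.37, unadjusted p = 0.00535, adjusted p = 0.655, limma), and HIGH replicate 3 was below CON replicate 1 as deposited. KDELR1, the receptor that returns chaperones to the ER, and SELENOK, a selenoprotein of the ER membrane, had log2 fold changes in HIGH against LOW of 0.45 and -0.82, each with an adjusted p above 0.59 (limma).

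The labelled cell type was checked against marker genes. Of 14 granulosa cell markers 11 were in the table, whose levels summed to 251 to 278 FPKM in the CON libraries, 212 to 230.3 FPKM in LOW and 196 to 226 FPKM in HIGH. CYP11A1, the enzyme that opens steroid synthesis, gave most of it (135 to 198 FPKM), while the FSH receptor FSHR was at 0.218 to 0.564 FPKM. Markers of stromal and smooth muscle cells were strong, all 9 being present with a sum of 5147 to 6650 FPKM in CON, while LOW gave 5332 to 5630 FPKM and HIGH 4383 to 5706 FPKM. LUM, a matrix proteoglycan, was at 1815 to 2239 FPKM, and COL1A1, type I collagen, was at 15.8 to 35.1 FPKM in CON, while LOW gave 22.5 to 27.5 FPKM and HIGH 37.1 to 127 FPKM. TAGLN, an actin-binding protein of smooth muscle, had the opposite order of means, 2095 FPKM in CON, 1939 in LOW and 1472 in HIGH, with overlapping ranges. The theca enzyme CYP17A1 did not exceed 0.412 FPKM, and endothelial CDH5 was listed at 0 in every library. The sum over 6 leukocyte markers was 18.8 to 21.9 FPKM in CON, while LOW gave 16.6 to 18.5 FPKM and HIGH 15.4 to 18.8 FPKM, and over 3 epithelial markers it was 1.91 to 3.65 FPKM. In bulk RNA, fewer cells of a type and less RNA per cell cannot be told apart, and the part of cell makeup in the ER gene values was not tested.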

How the data were processed

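Total RNA of 9 cultures (3 per glucose group) was sequenced by the authors, and paired reads were aligned with HISAT2 and assembled into transcripts. The submitters' processing notes also list HTSeq 0.6.0 and STAR 2.5.1b. The genome build and the use of strand are not given in the sources used here. The deposited FPKM values per gene were the main data. For the 14153 genes with a symbol they equalled the sum over transcripts. The deposited gene count table did not hold numbers of reads: its values, treated as a score, equalled FPKM times genomic span times a factor per library (within 3% for 100% of 4496 to 4603 genes of a single transcript per library) so no count model was run. Sequencing depth per gene therefore stays unknown here, and no counting interval is given.

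FPKM was divided by a library factor (0.931 to 1.13, set by genes that carry a symbol and reach 1 FPKM in all libraries). Ensembl genes without a symbol were divided by a separate factor, set the same way on themselves. The values of log2(FPKM + 0.1) were tested with limma 3.58.1 (R 4.3.3), all 9 libraries and 3 groups in a single fit with a mean-variance trend. Genes needed 0.1 FPKM in 3 libraries and a span of 300 bases. P-values were adjusted by Benjamini-Hochberg over all 24365 genes. A fold change on this scale understates the change of low genes. The fit was tested on simulated data. The members and lists were chosen with earlier results of these data known.

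Values in every library are given for HSPA5, HSP90B1, CALR, PDIA4, DNAJB9, HERPUD1, SDF2L1, CRELD2, HYOU1, MANF, ERN1, ATF6, EIF2AK3 and any member among the 3 of smallest unadjusted p in a comparison. From the wider list, genes with an unadjusted p under 0.05 could be named, plus ATF4 and DDIT3. Alternatives covered pseudocount, filter, scaling, trend, covariates, a replicate block, the groups in the fit and leaving out each library.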

Additional observations from a re-analysis of the deposited data

How the results depend on the processing

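Under 21 alternatives for each pairwise comparison and 20 for the pooled one, the number of ER genes called stayed at 0, except for 1 (SEC61A1, adjusted p = 0.016, limma) in HIGH against CON without LOW replicate 3, so that leaving out single libraries gave 0 to 1. A rule that also asks for an absolute log2 fold change above 1 gave 0. The median log2 fold change of the ER genes moved by more than the spread between libraries (SD 0.074) to -0.11 in LOW against CON and to -0.019 in HIGH against LOW with the FPKM as deposited, and to 0.034 in HIGH against LOW with the small RNA share as a covariate. Leaving out single libraries gave -0.105 to -0.024 in HIGH against LOW. The number of ER genes with an unadjusted p under 0.05 depended most on CON replicate 1: without it, 14 instead of 3 passed in HIGH against CON and 9 instead of 1 with glucose pooled, none of them called (lowest adjusted p = 0.175 and 0.321, limma). Without HIGH replicate 3 the counts were 7 in HIGH against CON and 8 in HIGH against LOW. For the fits without these libraries, the share of all genes at an unadjusted p under 0.05 was not computed. The counts therefore have no background and cannot be read as a trait of the ER genes. The cause was not tested. Genes called over the whole table ranged from 0 to 5, 1 to 8, 1 to 6 and 1 to 6 in the 4 comparisons.

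The replicate numbers were not taken as pairs, since not every same-numbered pair correlated above 0.1: deviations from the group means correlated at -0.078 to 0.694 over 9 same-numbered pairs (median 0.263) and at -0.708 to 0.376 over 18 others (median -0.164). Pairs of replicate 1 were at 0.373 to 0.677 and pairs of replicate 3 at 0.179 to 0.694. Those of replicate 2 were at -0.078 to 0.040. With the replicate number as a block, 0 ER genes were called in each comparison, and 0, 10, 8 and 3 had an unadjusted p under 0.05. The share of all genes at this p in the blocked fit was not computed. Whether the higher counts belong to the ER genes or to all genes is therefore not known. Planned count tests (edgeR with and without a filter, and DESeq2) were not run, since the table held no read counts. The SEC61A1 call in HIGH against CON appeared only without LOW replicate 3, and the log2 fold change stayed at 1.53. With only the CON and HIGH libraries in the fit, no ER gene was called (lowest adjusted p = 0.0989, limma). Among the libraries left out singly, CON replicates 1 and 3 moved the ERN1 value in HIGH against CON most.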

Other observations

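SEC61A1 was among 3 of 8531 genes with a symbol and an FPKM of 1 or more in every library whose values fell at 2 levels, defined after seeing the data as a gap of at least 1 on the log2 scale, at least 3 libraries on each side and a spread within each side of no more than 50% of the gap. The others were RNF139, a ubiquitin ligase of the ER membrane from the wider list, and SDC4, a cell surface proteoglycan. RNF139 was at 6.85, 28.3 and 25.8 FPKM in CON, at 7.11, 29.8 and 28.0 FPKM in LOW and at 6.67, 5.67 and 27.3 FPKM in HIGH, so that both levels occurred in every glucose group. The split followed the glucose groups in 0 of the 3 genes. In SEC61A1 the groups CON and HIGH were each at a single level, and LOW was at both.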
